A study of Homo sapiens with 6 samples.

Results

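Desmosomes are the spot-like junctions that tie the keratin filaments of neighbouring epithelial cells together. Outside the cell, the desmosomal cadherins (desmogleins and desmocollins) bind those of the next cell. On the inner side, plakoglobin and the plakophilins hold the cadherin tails, and desmoplakin links this plaque to keratin. Stratified squamous epithelia, from which head and neck squamous cell carcinoma (HNSCC) arises, rely on these junctions for mechanical strength, and each layer uses its own mixture of family members.

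Here 10 desmosome genes were followed among the 14959 genes of the deposited table. They are the cadherins DSG2, DSG3, DSC2 and DSC3, the plakin DSP (desmoplakin), the plakophilins PKP1, PKP2 and PKP3, JUP (plakoglobin), and PERP, a membrane protein of desmosomes that p53 and p63 induce. They were chosen by name, and all 10 were found. RNA was taken from UM-SCC1, an established human HNSCC cell line, 48 h after transfection of miR-204-5p mimics (3 libraries) or of control mimics (3 libraries). Mimics are synthetic RNA duplexes that take the place of the mature miRNA inside the cell, and both groups carried the transfection reagent and such a duplex. The design describes separate experiments for the 3 libraries of a group, all in 1 cell line, and the dose of mimic is not given in the sources used here. In RNA from whole cultures, fewer cells of a kind and less RNA per cell cannot be told apart.

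Expression was given as FPKM, computed by the authors, in which fragments are scaled to the length of the transcript and to 1e6 mapped fragments, so that levels of different genes can be set side by side. FPKM summed over all genes ran from 283454 to 291864 with miR-204-5p mimics and from 276822 to 280056 with control mimics, without overlap. The main fit below used FPKM without further scaling, so this offset is part of its fold changes. Scalings were tried as alternatives. Read numbers are not part of the table. Among low values of genes with 1 annotated transcript, a step of 0.0305 to 0.0384 FPKM on 1 kb recurred. By this step, the estimated depth of the libraries differed 1.26-fold between the extremes. The step was sought within a fixed range and has no error estimate, so this is not an upper bound. Whether 1 step is a read or a read pair could not be told. DSG3, one of the less abundant members, stood at no fewer than 548 such steps in any library. The squamous identity of the line was checked with 8 epithelial markers (KRT5, KRT14, KRT6A, KRT17, TP63, SFN, EPCAM and CDH1), all of them present. They summed to 869 to 964 FPKM with miR-204-5p mimics and 988 to 1022 FPKM with control mimics. By the test used below, 4 of the 8 were lower and 3 higher, against 16.8% and 23.9% of all genes. The part of this shift in the desmosome values was not tested. Of 10 markers of immune, endothelial, fibroblast, muscle and pigment cells, 9 were analysed and their sums overlapped between groups, at 20.6 to 22.1 and 20.1 to 21.9 FPKM. Of these 9 markers, 2 were lower and 2 higher, beside the same 16.8% and 23.9% of all genes. CD68 and COL1A1 made up most of these sums, while PTPRC, CD3E, PECAM1, VWF, COL1A2, MYH11 and MLANA stayed between 0.0290 and 0.850 FPKM in every library, and none was at 0.

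To see which desmosome mRNAs could pair with the transfected miRNA, the sequence of miR-204-5p was set beside the 3'UTRs of the 10 genes. The mature miRNA is shown with its seed, bases 2 to 8, in capitals. It is encoded on the minus strand at chr9:70810031-70810052 of GRCh38.p14 (RefSeq), and miR-211-5p, from chr15:31065095-31065116, shares the seed and is shown for comparison.
hsa-miR-204-5p: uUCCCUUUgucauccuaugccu
hsa-miR-211-5p: uUCCCUUUgucauccuucgccu

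Matches to the seed were sought in the longest 3'UTR that GENCODE 29 (GRCh38) lists for a gene. They were classed as 8mer (AAAGGGAA), 7mer-m8 (AAAGGGA), 7mer-A1 (AAGGGAA) and 6mer (AAGGGA), read on the mRNA strand alone, with each site counted once in its longest class. A match of at least 7 bases was found in 5 of the 10 desmosome genes, DSG3, DSC2, DSC3, PKP1 and PERP, against 27.1% of 14664 genes with a 3'UTR. An 8mer was found in 2 of them, DSG3 and PERP, against 8.60% of all genes. Desmosome 3'UTRs varied in length from 339 bases (PKP3) to 9175 bases (DSC2), where the median over all genes was 1251.5 bases, and longer 3'UTRs have more room for a match. All matches of 7 bases or more are printed along the mRNA so that they can be compared, 5′ to 3′, with the match in capitals. Whether any of them acts on its mRNA was not tested.
DSG3 8mer, 767 bases after the stop codon, chr18:31477027-31477034: tgagctgcttggaaAAAGGGAAgtagtt
DSG3 7mer-m8, 1289 bases after the stop codon, chr18:31477549-31477555: taattttcaagtcaaAAAGGGAtatgga
DSG3 8mer, 1301 bases after the stop codon, chr18:31477561-31477568: aaaaagggatatggAAAGGGAAttatga
DSC2 7mer-m8, 505 bases after the stop codon, chr18:31067504-31067510: accttttcactgtgcAAAGGGAgatttc
DSC2 7mer-m8, 7755 bases after the stop codon, chr18:31060254-31060260: caatgaaatcaagtaAAAGGGAtttatc
DSC3 7mer-A1, 3671 bases after the stop codon, chr18:30990712-30990718: aggaccagtgtagtcAAGGGAAaacatg
PKP1 7mer-A1, 2769 bases after the stop codon, chr1:201332810-201332816: ctggggtgggcagggAAGGGAAgccggg
PERP 7mer-A1, 2361 bases after the stop codon, chr6:138089675-138089681: tttatgtcataacagAAGGGAAgttcca
PERP 8mer, 3412 bases after the stop codon, chr6:138088623-138088630: tggaaaaagccaagAAAGGGAAattaaa
PERP 8mer, 3525 bases after the stop codon, chr6:138088510-138088517: ctgcaaaaataaacAAAGGGAAactca

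All these sites lie in the last exon of their transcript: exon 16 of 16 in DSG3 and DSC2, 17 of 17 in DSC3, 15 of 15 in PKP1 and 3 of 3 in PERP. DSG3 is on the plus strand and held its 3 longest matches within its 2442-base 3'UTR, the last 2 of them close enough that the printed windows overlap. The second 8mer of PERP, on the minus strand, begins at base 3525 of a 3'UTR of 3537 bases. No match of 6 or more bases was found in the longest 3'UTR of DSG2, DSP or JUP, and PKP2 and PKP3 held 1 6mer each.

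**Figure D1:**
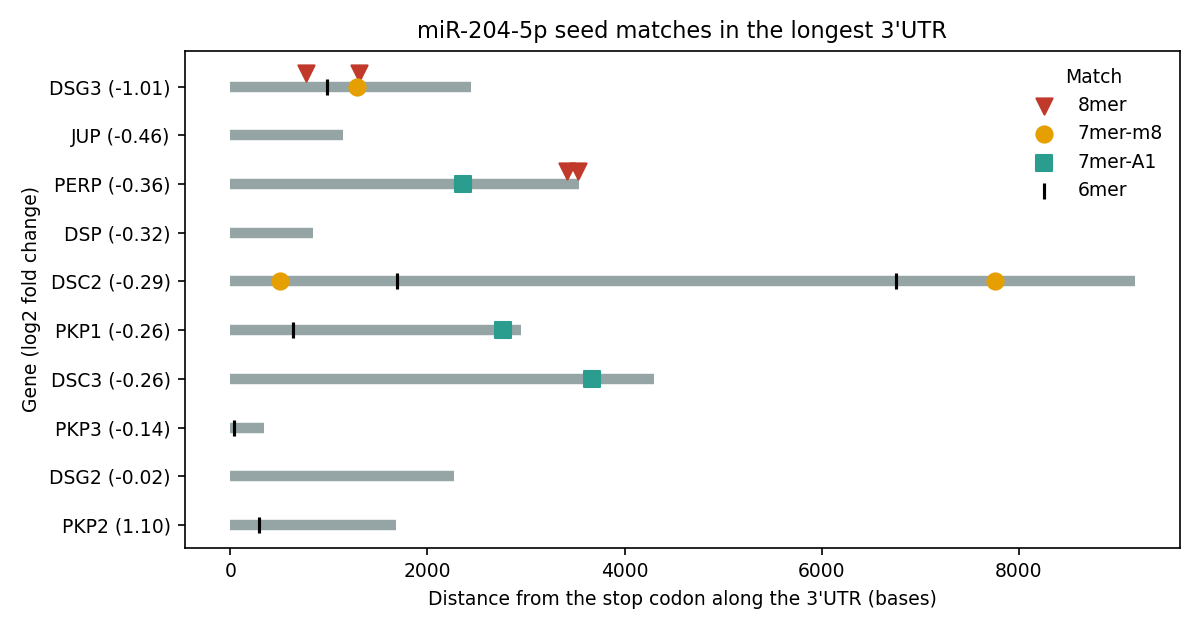
Seed matches to miR-204-5p along the longest 3'UTR of each desmosome gene. The x axis is the distance from the stop codon in bases, grey bars are the 3'UTRs, symbols mark the 4 classes of match, and the log2 fold change of the gene stands in brackets, with genes ordered by it. DSG3 and PERP hold 2 8mers each, and the bars of JUP, DSP and DSG2 are empty.

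With miR-204-5p mimics, 8 of the 10 desmosome mRNAs were lower than with control mimics, 1 was higher and 1 did not pass the test. The largest fall was that of DSG3, to 3.99 ± 0.210 from 9.05 ± 0.272 FPKM (SD, n = 3), and the only rise was that of PKP2, to 13.3 ± 1.18 from 5.66 ± 0.667 FPKM. The other members that fell were JUP, DSC2, PERP, DSP, DSC3, PKP1 and PKP3. Of these JUP fell by 27.8% of its control mean and PKP3 fell by 9.77%, with the rest in between. DSG2, the most abundant desmosomal cadherin of the line, was at 44.2 ± 1.63 and 44.9 ± 1.40 FPKM. The test was limma on log2(FPKM + 1) over all genes, two-sided, with the Benjamini-Hochberg adjustment and a threshold of 0.05, and fold changes are on this log2 scale, which understates changes of genes with low FPKM. By the same rule 40.8% of all genes passed, 16.8% lower and 23.9% higher, and among the 11504 genes whose FPKM averaged 1 or more, as it did for all members, 47.8% passed and 20.1% were lower. Scaling the libraries to equal medians made the directions even over the table, with 3025 genes lower and 3023 higher, while 8 members stayed lower and 1 higher by count. With an unadjusted p under 0.05 the members numbered 9 as well, against 49.4% of all genes. For 9 of the 10 members (8 lower and 1 higher) no library of one group reached into the range of the other, against 53.6% of all genes, 22.7% lower and 30.9% higher. The median log2 fold change of the 10 genes was −0.28, beside 0.03 for all genes tested. Leaving out control mimics replicate 2 left 6 members past the threshold, 5 of them lower, and 4971 genes over the whole table, 2045 of them lower, in place of 6098 and 2520. DSG3, DSC3, DSP, JUP and PERP were lower and PKP2 higher past the threshold under each of the 12 alternatives tried.

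**Figure D2:**
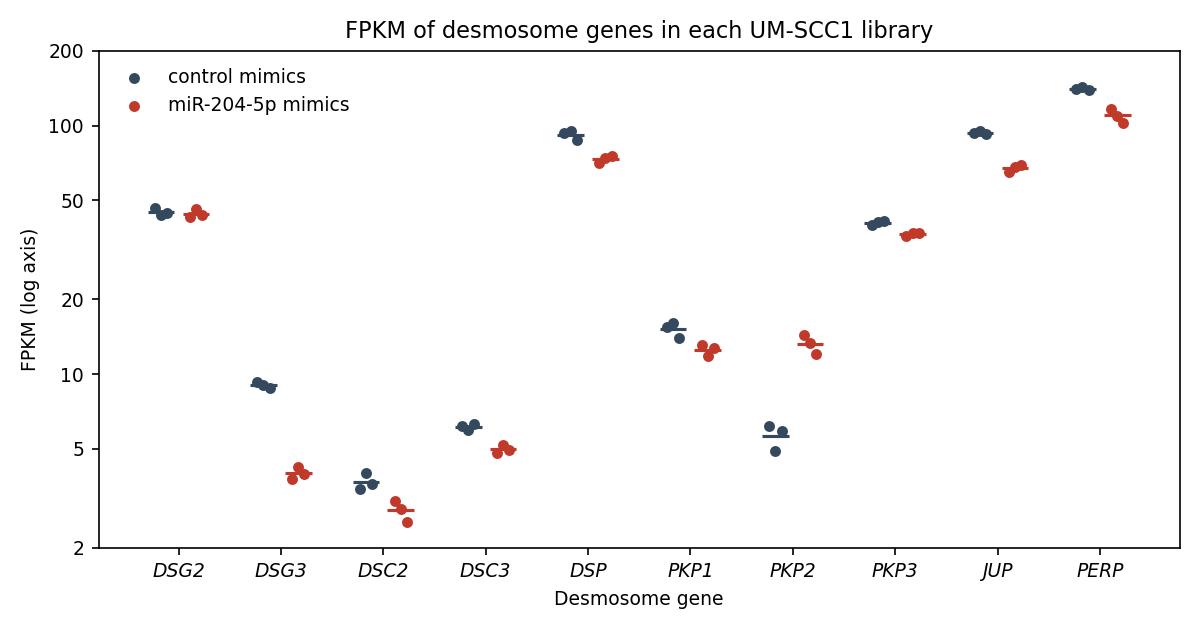
FPKM of the 10 desmosome genes in each of the 6 UM-SCC1 libraries, on a log axis. Each point is 1 library and each bar the mean of 3, dark for control mimics and red for miR-204-5p mimics. The groups overlap for DSG2 alone among these genes, PKP2 is the gene whose red points lie above the dark ones, and DSG3 shows the widest gap downward.

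The levels ordered the members in much the same way in both groups. With control mimics PERP was highest (141 ± 1.46 FPKM), followed by JUP (93.5 ± 1.08) and DSP (92.0 ± 4.26), whose libraries overlapped, then DSG2 (44.9 ± 1.40) and PKP3 (40.6 ± 0.775). The place of PKP3 depends on the length behind its FPKM, which is uncertain, as described below. Below PKP3 came PKP1 (15.2 ± 1.03), DSG3 (9.05 ± 0.272), DSC3 (6.15 ± 0.188), PKP2 (5.66 ± 0.667) and DSC2 (3.69 ± 0.283), and of these neighbours DSC3 and PKP2 overlapped. Median FPKM over all genes was 5.70, so that both desmocollins lay near the middle of the table, and PERP, JUP and DSP were above 97.1% or more of its genes. With miR-204-5p mimics PKP2 moved from rank 9 to rank 6, beside PKP1, and DSG3 from rank 7 to rank 9, below DSC3.

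Among the cadherins, DSG3 is the desmoglein of the basal and lower layers of squamous epithelium and the autoantigen of pemphigus vulgaris. It read 3.80, 4.22 and 3.96 FPKM in miR-204-5p replicates 1, 2 and 3, and 9.33, 9.03 and 8.79 FPKM in control replicates 1, 2 and 3. Every control library was more than 2 times as high as every miR-204-5p library. The mean was 2.27-fold lower with miR-204-5p mimics, and the log2 fold change was −1.01 (standard error, SE, 0.0574, 95% confidence interval −1.15 to −0.87, adjusted p = 9.00e-05 by limma). A smaller absolute log2 fold change was found for 98.4% of all genes. GENCODE 29 gives DSG3 1 transcript and no overlapping gene, and the 3'UTR with the 8mers printed above is that of this transcript.

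DSG2 is the desmoglein found in simple and stratified epithelia alike. Its FPKM was 42.8, 46.0 and 43.7 with miR-204-5p mimics and 46.4, 43.7 and 44.5 with control mimics. The groups overlapped, with a log2 fold change of −0.02 and a 95% confidence interval of −0.12 to 0.08 (adjusted p = 0.718 by limma). The estimated log2 fold change of every other member lies outside this interval. The 95% confidence intervals of PKP3 (−0.23 to −0.06), DSC2, PKP1 and DSC3 overlap it, however. Whether the change of DSG2 differed from theirs was not tested. DSG2 lies 19.3 kb downstream of DSG3 on the plus strand of chromosome 18, at 31498043 to 31549008, and DSG3 at 31447795 to 31478702 (GRCh38).

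Ratios between relatives were taken within each library, on log2(FPKM + 1). That of DSG3 to DSG2 was −3.19, −3.17 and −3.17 with miR-204-5p mimics and −2.20, −2.15 and −2.22 with control mimics. The groups were far apart relative to the spread of either, by −0.99, with an exact two-sided permutation p = 0.1, below which a design of 3 and 3 libraries cannot go. In all, 6 ratios were compared in this way, and the adjusted p over the 6 ratios was 0.15.

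Desmocollins pair with desmogleins across the junction. DSC2, the most widely expressed desmocollin, read 3.10, 2.86 and 2.54 FPKM with miR-204-5p mimics and 3.46, 4.01 and 3.60 FPKM with control mimics. The groups did not overlap, though the nearest libraries were close. Its log2 fold change was −0.29 (SE 0.0812, adjusted p = 0.0280 by limma), a call that was lost without miR-204-5p mimics replicate 2 or 3, or control mimics replicate 2 or 3 (adjusted p by limma from 0.0618 to 0.0846). DSC3, the desmocollin of basal keratinocytes, read 4.81, 5.19 and 4.97 FPKM against 6.21, 5.95 and 6.31 FPKM. All miR-204-5p libraries of DSC3 were below all control libraries, with a log2 fold change of −0.26 (SE 0.0555, adjusted p = 0.0113 by limma). The log2 ratio of DSC3 to DSC2 averaged 0.65 ± 0.13 with miR-204-5p mimics and 0.61 ± 0.12 under control mimics (SD, n = 3), a difference within the spread (exact permutation p = 0.6, adjusted p over the 6 ratios 0.6).

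Measured together, the 4 cadherins summed to 56.0 ± 1.99 FPKM with miR-204-5p mimics and 63.8 ± 1.45 FPKM with control mimics (SD, n = 3). DSG3 made up 13.9% to 14.4% of this sum in the control libraries and 6.98% to 7.24% in the miR-204-5p libraries. The share of DSG2 was 69.7% to 70.9% and 78.5% to 79.2%. DSC3 had 9.49% to 9.98% and 8.82% to 9.01%, and the shares of DSC2 overlapped, at 5.30% to 6.40% and 4.60% to 5.68%. The cadherin mRNA pool thus held less DSG3 and relatively more DSG2, while the FPKM of DSG2 itself overlapped between groups.

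The cadherin genes sit in 1 cluster on chromosome 18, from 30990008 (the end of DSC3) to 31549008 (the end of DSG2), a span of 559 kb on GRCh38. The desmocollins run on the minus strand and the desmogleins on the plus strand. DSC1 and DSG1, the pair of the upper differentiating layers, lie between DSC2 and DSG3. Their values were 0.0472 to 0.241 FPKM over all 6 libraries, or about 5.99 to 38.1 of the steps described above, and the groups overlapped for both (adjusted p = 0.518 by limma for DSC1 and 0.230 for DSG1). So of the 6 cluster genes measured, DSC2, DSC3 and DSG3 fell, with DSG3 the largest in size, and DSG2, DSC1 and DSG1 did not pass the test.

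**Figure D3:**
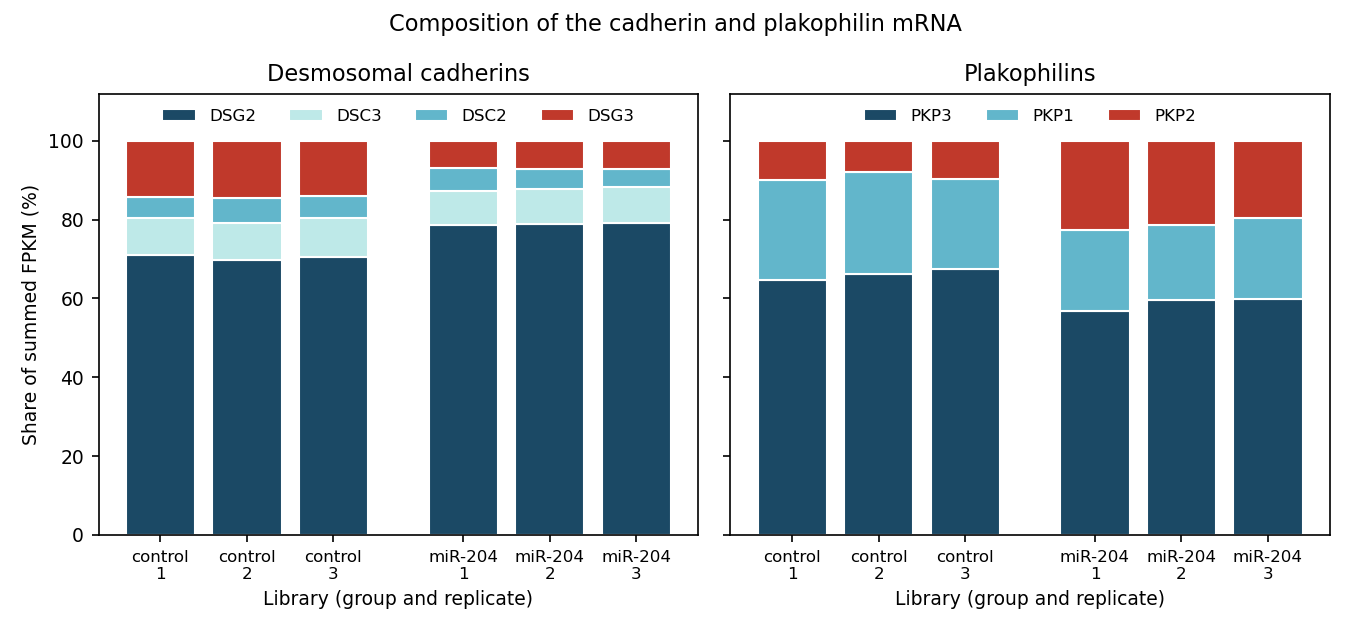
Share of each gene in the summed FPKM of the 4 desmosomal cadherins (left) and of the 3 plakophilins (right), in percent, for each library. Each stacked bar is 1 library and adds up to 100%. DSG3 takes 13.9% to 14.4% of the cadherin sum in control libraries and 6.98% to 7.24% with miR-204-5p mimics, and PKP2 takes 7.93% to 10.03% and 19.5% to 22.7% of the plakophilin sum.

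Plakophilins are armadillo-repeat proteins that gather cadherin tails and desmoplakin into the plaque. PKP2 is the plakophilin of simple epithelia, basal cells and heart muscle, where its mutations cause arrhythmogenic cardiomyopathy. It read 14.4, 13.3 and 12.04 FPKM in the miR-204-5p libraries and 6.16, 4.90 and 5.91 FPKM in the control libraries. Each miR-204-5p library lay far above each control library. The mean was 2.34-fold higher, a log2 fold change of 1.10 (SE 0.0964, 95% confidence interval 0.87 to 1.33, adjusted p = 0.000344 by limma), larger in size than that of 98.9% of all genes. The gene spans chr12:32790745-32896840 (minus strand) and overlaps 2 genes of GENCODE 29, AC087588.1 on the other strand and AC087588.2 on its own, neither of which is among the 14959 genes.

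When all annotated 3'UTRs of a gene were searched, PKP2 was the one member whose longest match moved to another class. The listed transcript of 13 exons held the 6mer alone, 287 bases after the stop codon. A short coding transcript of 2 exons held an 8mer in its second exon, 143 bases after its own stop codon.
PKP2 8mer, short transcript, chr12:32894612-32894619: ccatgaacagaagaAAAGGGAAtgttgc
How much of the PKP2 signal came from either transcript was not tested, since 1 value per gene is given.

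PKP1, the plakophilin of the suprabasal layers, read 13.0, 11.8 and 12.8 FPKM with miR-204-5p mimics and 15.5, 16.0 and 14.0 FPKM with control mimics. The groups did not overlap, with a log2 fold change of −0.26 (SE 0.0644, adjusted p = 0.0195 by limma). Its call was lost when miR-204-5p mimics replicate 2 or either of control mimics replicates 1 and 2 was left out (adjusted p by limma from 0.0612 to 0.0635). PKP3, found throughout the layers of the epidermis, read 35.9, 36.9 and 37.1 FPKM against 39.7, 40.9 and 41.2 FPKM, the smallest of the changes that passed, with a log2 fold change of −0.14 (SE 0.0344, adjusted p = 0.0161 by limma). Without control mimics replicate 2 or 3 its adjusted p was 0.0547 and 0.0515. The transcript listed for PKP3 has 4 exons and 756 bases with no annotated 3'UTR, while the longest 3'UTR of the gene ends a transcript of 13 exons, so the length behind its FPKM is uncertain.

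As a family, the plakophilins summed to 62.4 ± 0.822 FPKM with miR-204-5p mimics and 61.4 ± 0.296 FPKM with control mimics (SD, n = 3). PKP2 contributed 19.5% to 22.7% of the sum with miR-204-5p mimics and 7.93% to 10.03% with control mimics. PKP1 gave 19.0% to 20.6% and 22.9% to 25.9%, and PKP3 56.7% to 59.9% and 64.7% to 67.4%. The lowest sum with miR-204-5p mimics was 61.9 FPKM and the highest with control mimics 61.8 FPKM, and the share of PKP2 was larger and those of PKP1 and PKP3 smaller in every miR-204-5p library. PKP3 is the largest part of these sums, so they and the shares depend on the uncertain length behind its FPKM, which the ratio of PKP2 to PKP1 does not use. Within a library, PKP2 stood at 0.94 to 1.13 times the FPKM of PKP1 with miR-204-5p mimics and at 0.306 to 0.421 times with control mimics. The log2 ratios of PKP2 to PKP1 and of PKP2 to PKP3 were higher by 1.36 and 1.25, without overlap (exact permutation p = 0.1 for each, the smallest possible, adjusted p over the 6 ratios 0.15). That of PKP1 to PKP3 overlapped between groups, with a difference of −0.11 (exact permutation p = 0.3, adjusted p 0.36).

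The mRNAs of both plaque proteins that every desmosome shares fell. JUP, which binds cadherin tails in desmosomes and in adherens junctions, read 65.2, 67.9 and 69.5 FPKM with miR-204-5p mimics and 93.3, 94.7 and 92.6 FPKM with control mimics. Its log2 fold change was −0.46 (SE 0.0361, adjusted p = 0.000232 by limma), the second largest fall of the 10 genes on this scale, and the groups were widely separated. DSP read 70.6, 73.8 and 75.2 FPKM against 93.6, 95.2 and 87.1 FPKM, a log2 fold change of −0.32 (SE 0.0466, adjusted p = 0.00224 by limma). The ratio of JUP to DSP was 0.92 in each miR-204-5p library and 0.995 to 1.06 in the control libraries, and on the log2(FPKM + 1) scale it differed by −0.14 without overlap (exact permutation p = 0.1, adjusted p 0.15). Neither gene has a seed match of 6 bases or more in its longest 3'UTR.

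PERP, at chr6:138088505-138107511 on the minus strand, was the most abundant member. It read 117, 110 and 103 FPKM with miR-204-5p mimics and 140, 142 and 139 FPKM with control mimics. The miR-204-5p libraries spread more widely than the controls (SD 7.19 and 1.46 FPKM) but all lay below them, with a log2 fold change of −0.36 (SE 0.0515, adjusted p = 0.00229 by limma). With 2 8mers and a 7mer-A1 it has as many long matches as DSG3. Among the 8 genes that fell, 5 had a 3'UTR match of 7 bases or more and 3 (DSP, JUP and PKP3) had none. DSG2, which did not pass the test, and PKP2, which rose, had none in their longest 3'UTR. A short PKP2 transcript held the 8mer printed above. Of all genes with a 3'UTR, 27.1% had such a match, and whether this share differed by direction of change was not tested.

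**Figure D4:**
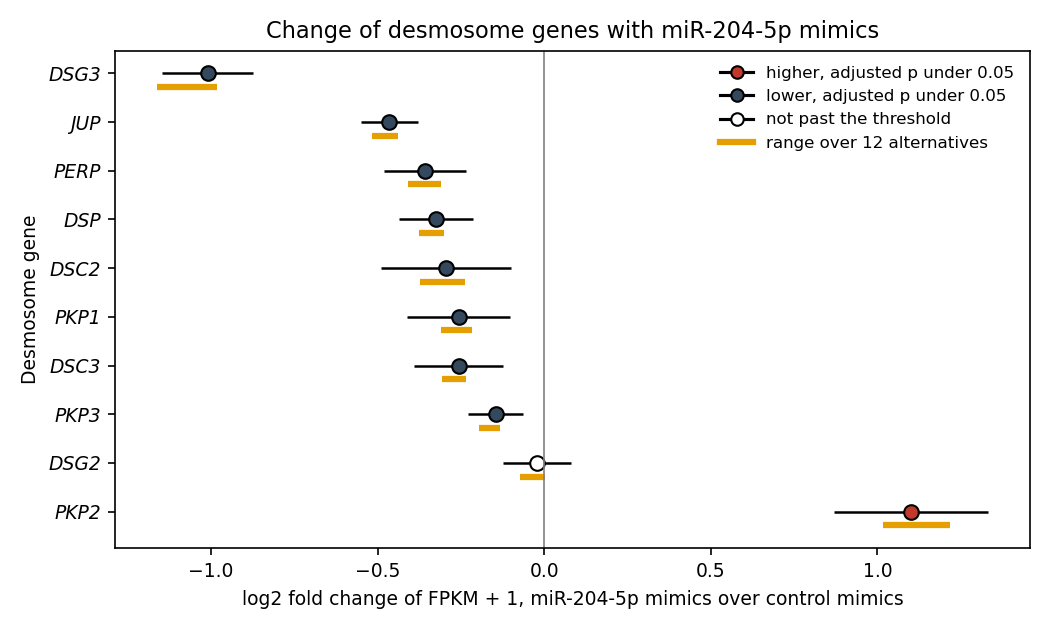
Log2 fold change of FPKM + 1 for each desmosome gene, miR-204-5p mimics over control mimics. Points are the values from all 6 libraries with 95% confidence intervals (black), and orange bars span the values under the 12 alternatives. DSG3 lies at −1.01 and PKP2 at 1.10, 7 genes lie between −0.46 and −0.14, and the interval of DSG2 includes 0.

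Lists of neighbouring genes were compared to see whether other parts of the junction moved as well. Of 9 further desmosome and plakin genes analysed, 1 was lower and 1 higher with an adjusted p under 0.05 by limma, and 7 did not pass. Over all genes, 16.8% were lower and 23.9% higher. PPL (periplakin, a plakin of the desmosomal plaque and cornified envelope) fell from 39.2 ± 2.51 to 32.4 ± 0.0895 FPKM (log2 fold change −0.27, adjusted p = 0.00689 by limma). DST, which encodes the hemidesmosomal plakin BPAG1, was higher (log2 fold change 0.26, adjusted p = 0.0357 by limma), but this call was lost with each library left out and under 3 scalings of FPKM. EVPL (envoplakin) had a log2 fold change of −0.34 (adjusted p = 0.166 by limma). It passed in 1 of the 12 alternatives, without control mimics replicate 2 (−0.54, adjusted p = 0.0103 by limma). Without control mimics replicate 1 it was at −0.23 (adjusted p = 0.382 by limma). PKP4, a relative of the plakophilins found mainly at adherens junctions, averaged 18.7 ± 1.18 FPKM against 19.0 ± 0.252 FPKM (log2 fold change −0.03, adjusted p = 0.696 by limma). The median log2 fold change of this list was −0.03.

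In the adherens junction, 1 of 9 core genes was lower and 1 higher, against 16.8% and 23.9% of all genes, and 7 did not pass. E-cadherin mRNA (CDH1) was at 37.2 ± 1.07 FPKM with miR-204-5p mimics and 28.2 ± 0.727 FPKM with control mimics, a rise (log2 fold change 0.39, adjusted p = 0.000618 by limma), and NECTIN1 fell from 58.1 ± 3.64 to 41.7 ± 1.83 FPKM (log2 fold change −0.47, adjusted p = 0.00122 by limma). JUP, which both junctions use, thus fell in the libraries in which CDH1 rose. The median log2 fold change of the adherens junction list was −0.04.

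Among 11 keratins, the filaments that desmosomes anchor, 5 were lower and 4 higher, against 16.8% and 23.9% of all genes, and 2 did not pass. The lower ones included KRT5 (log2 fold change −0.43, adjusted p = 0.00482 by limma) and KRT14 (−0.51, adjusted p = 0.000229 by limma), the pair of basal squamous cells, and also KRT16 (−1.05), KRT19 (−0.95) and KRT15 (−0.83). KRT8 (1.199) and KRT18 (0.91), the pair of simple epithelia, rose, as did KRT6A (0.81), with adjusted p from 7.36e-05 to 0.00576 by limma for KRT16, KRT19, KRT15 and these 3 genes. The median log2 fold change of the keratins was −0.18.

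Of 14 genes known to regulate desmosomes or to cleave their cadherins, 8 were lower and 3 higher, against 16.8% and 23.9% of all genes. The other 3 did not pass, and the median log2 fold change of the list was −0.23. TP63, which encodes the squamous master regulator p63 and controls PERP and other junction genes, fell from 55.9 ± 1.48 to 27.4 ± 3.19 FPKM (log2 fold change −1.01, adjusted p = 0.000276 by limma). GRHL1, a grainyhead-like factor that binds the DSG1 promoter in epidermis, fell from 27.5 ± 0.701 to 13.0 ± 0.220 FPKM (log2 fold change −1.03, adjusted p = 3.13e-05 by limma). SNAI2 (Slug), a repressor of epithelial genes, fell from 9.99 ± 0.742 to 6.80 ± 0.359 FPKM (log2 fold change −0.49, adjusted p = 0.00199 by limma). Of the genes that were higher, ADAM9 (0.39, adjusted p = 0.00192 by limma) and ADAM15 (0.24, adjusted p = 0.00281 by limma) encode cell-surface proteases, and PRKCA (0.30, adjusted p = 0.0188 by limma) encodes protein kinase C alpha, which regulates desmosome adhesion. The other proteases of this list went the opposite way, ADAM17 with −0.39 (adjusted p = 0.00130 by limma) and ADAM10 with −0.25 (adjusted p = 0.0147 by limma), and both are named here after their values were seen. The call of PRKCA was lost without miR-204-5p mimics replicate 2 or 3, or control mimics replicate 1 or 3 (adjusted p by limma from 0.0516 to 0.0611). The part of any of these genes in the desmosome values was not tested.

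**Figure D5:**
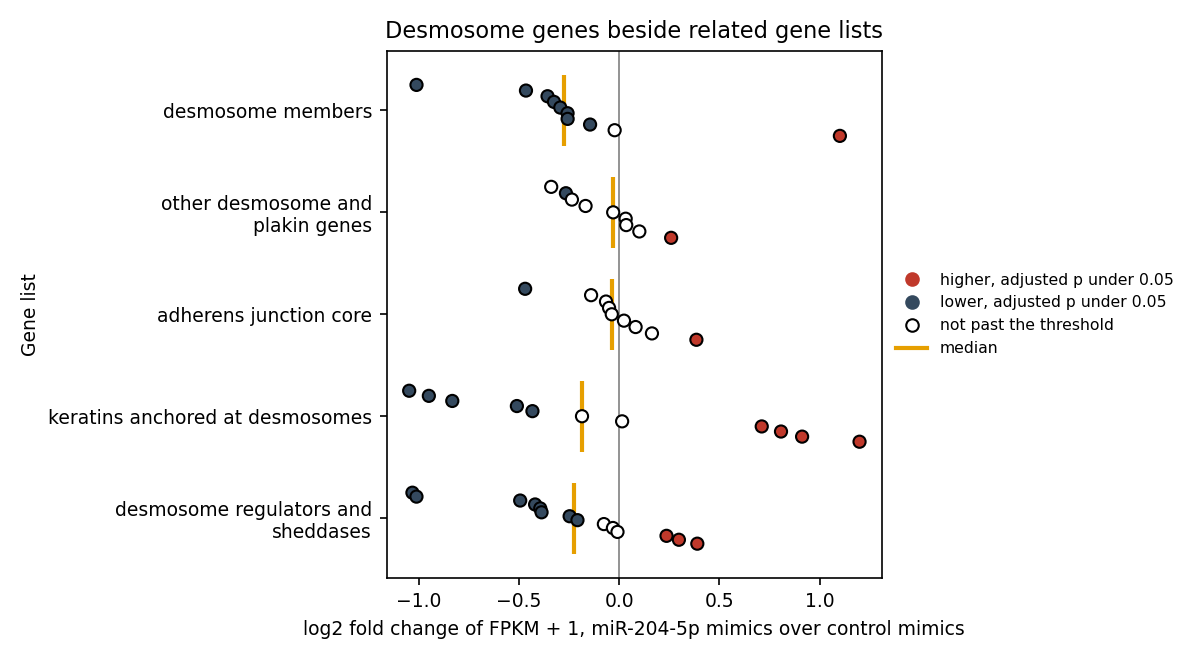
Log2 fold change of FPKM + 1, miR-204-5p mimics over control mimics, for the 10 desmosome genes and 4 related lists. Each point is 1 gene, dark where lower and red where higher by limma with an adjusted p under 0.05, open where not past it, and orange lines are medians. Desmosome genes lie mostly below 0 with a median of −0.28, while the adherens junction list has a median of −0.04 and keratins lie on both sides.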

How the data were processed

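Libraries of 6 UM-SCC1 RNA samples were prepared with the TruSeq kit for Illumina HiSeq X sequencing. The deposited values are FPKM, computed by the authors, and the submitters' processing notes name HISAT2, StringTie and hg38 without versions or roles. The annotation is not given in the sources used here. The table also holds the authors' own log2 ratios, p-values and FDR, which were not used. No strand-specific kit is named, so reads of DSG2, DSC2 and PKP2 cannot be told from those of genes on the opposite strand (DSG2-AS1, DSCAS and AC087588.1).

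Since FPKM is no count, limma 3.58.1 (R 4.3.3) was run on log2(FPKM + 1) of all 14959 genes with no filter, using lmFit and a trended eBayes. The fit was tested on simulated data with independent noise and far fewer changed genes than passed here. That simulation therefore cannot show how the threshold behaves in these libraries. Ratios of members were compared by exact permutation tests in scipy 1.17.1. The members, gene lists and tests were chosen with earlier results of these data known. Genes named from the other lists were those past the threshold with a mean FPKM of at least 1 and the largest changes, at most 3 per list and direction, and DSG1, DSC1, PPL, EVPL, PKP4, CDH1, TP63 and SNAI2. Of the other genes of the lists, only those that check the cell line are named, together with ADAM10 and ADAM17. The alternatives were the replicate number as a block, a pseudocount of 0.1, a filter at a mean FPKM of 1, 3 scalings of FPKM and each library left out. DSG4 and DCN were not analysed here.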

Additional observations from a re-analysis of the deposited data

How the results depend on the processing

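In all, 12 alternatives were run for each desmosome gene. The number of members past the threshold was 9 under the pseudocount of 0.1, the filter and the 3 scalings, 6 with the replicate number as a block (5 lower), and 6 to 9 with 1 library left out. The same-numbered libraries did not deviate together (correlation of deviations −0.04, −0.02 and −0.11), and no library correlated best with its own number. With 3 libraries per group this cannot show whether same-numbered libraries shared a batch, and the labels give only a number. In the fit with this replicate block, the log2 fold changes of DSC2 (−0.29), PKP1 (−0.26) and PKP3 (−0.14) were as before by construction, with limma adjusted p of 0.0589, 0.0539 and 0.0562, and the number of genes called over the table was 5096, against 6098 without the block and 4971 to 5371 with 1 library left out. When single libraries were omitted, the log2 fold change ranged from −0.34 to −0.24 for DSC2, from −0.31 to −0.22 for PKP1 and from −0.16 to −0.13 for PKP3, and from −1.04 to −0.98 for DSG3 and from 1.02 to 1.16 for PKP2. That of DSG2 ran from −0.051 (without miR-204-5p mimics replicate 2) to 0.00199 and turned positive without control mimics replicate 1, and that of PKP4 ran from −0.070 to 0.016. The difference in the DSC3 to DSC2 ratio ran from −0.03 to 0.11, below 0 without miR-204-5p mimics replicate 3 (−0.018) or control mimics replicate 2 (−0.033). The further desmosome and plakin genes past the threshold numbered 1 to 3. Of the markers of other cell types, 0 passed by limma under the filter, which kept 2 of them (0 also at an unadjusted p under 0.05), against 4 without it. Scaling moved the median log2 fold change of all genes by −0.03 at most. The members moved further with equal medians. DSG2 went from −0.02 to −0.07, PKP3 from −0.14 to −0.20, JUP from −0.46 to −0.52 and PKP2 from 1.10 to 1.05. When all annotated 3'UTRs were searched, 6 members had a match of at least 7 bases in place of 5, PKP2 being added. By the same search, 29.2% of 14664 genes had one, in place of 27.1%. The cause of the lost calls was not tested. Without read numbers, counting error could not be separated from the spread between libraries.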

Other observations

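In all, 10 promoter windows from 250 bases before to 50 bases after a start site (RefSeq, GRCh38.p14) were found for 8 of the desmosome genes, with 2 windows each for DSC2 and JUP, and were searched for the E-box CAGGTG on both strands (CACCTG on the other). The motif, which Slug and other zinc-finger repressors bind, occurred in 4 of the 10 windows, those of DSG2 and DSP and 1 of the 2 windows each of DSC2 and JUP. Over all 35116 promoter windows, 20.6% held it. DSP, JUP and DSC2 fell with miR-204-5p mimics, as did SNAI2, and DSG2 did not pass the test. DSG3, DSC3, PKP1 and PERP held no such letters in these windows, and PKP2 and PKP3 had no entry. A match of letters is a description of the window only.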
